A study of Mus musculus with 12 samples.

Results

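Cholesterol and fatty acid synthesis was examined through 33 genes, chosen by name from a list of sterol and fatty acid enzymes and their SREBP regulators. The choice was made with earlier results of these data known. All 33 were found by symbol among the 54752 genes of the deposited table, and all 33 passed the filter on low counts in each comparison. They comprised 7 genes of the mevalonate branch, 12 of the branch from squalene to cholesterol, 6 SREBP regulators and sterol carriers and 8 fatty acid genes. There were 4 cerebellum libraries on each of 3 diets, all labelled with an age of 12 weeks. For AL and DR, the study's methods describe RNA from the cerebellar cortex, without the nuclei, of wild-type male C57BL6J/FVB F1 hybrid mice. The methods do not describe the mice of the third diet. AL mice fed without limit. DR mice received a reduced ration once a day from a younger age onward, and by the study's methods they were killed shortly after the hour of a meal that had been withheld, so that the lasting restriction and the hours without food cannot be told apart. The third diet is named in the labels only as ketogenic (KD), and its composition and timing are not given in the sources used here. The AL and DR mice were of one sex and one genetic background, which limits the result to that model.

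Cells make cholesterol from acetyl-CoA through mevalonate, farnesyl diphosphate, squalene and lanosterol, and the brain makes nearly all of its own because lipoproteins do not pass the blood-brain barrier. Myelinating oligodendrocytes and astrocytes are the main producers in the adult brain. The pathway is set by SREBP transcription factors, which Scap carries out of the endoplasmic reticulum when sterols are low and which Insig proteins hold back when sterols are high. SREBP-2 acts mostly on sterol genes and SREBP-1 mostly on fatty acid genes, where acetyl-CoA carboxylase and fatty acid synthase build saturated chains that elongases and desaturases then modify.

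Of the 33 genes, 9 were lower in the cerebellar cortex of DR mice than of AL mice and none was higher. Expression of Hmgcs1, Idi1, Sqle, Cyp51, Msmo1 and Sc5d in the sterol pathway and of the desaturases Scd2, Fads1 and Fads2 fell by between 11.9% (Sc5d) and 27.9% (Cyp51). A gene was called when its p from the quasi-likelihood F test of edgeR, adjusted by the Benjamini-Hochberg method over all 19052 genes tested, was under 0.05 (edgeR adjusted p), and 331 genes, or 1.74%, were called lower on DR. In 11 of the 33 every DR mouse lay below every AL mouse, as was true of 5.64% of all genes, and in none did every DR mouse lie above. The median log2 fold change (log2FC) of the 33 genes was -0.10, against 0.00 over all genes. Because the 33 were chosen with earlier results of these data known, these contrasts with all genes describe them and test no enrichment. No member was called between KD and AL mice, as no gene was (0.0%), and 8 were lower in DR than in KD mice, where 2.43% of all genes were.

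The upstream sequence of 3 of the called genes is shown, because SREBPs are known to act with NF-Y, which binds CCAAT boxes, at sterol regulatory elements near the starts of such genes. The letters are the 250 bases before the RefSeq start (GRCm38.p6), read 5′ to 3′ toward the gene, for the called genes whose window lay wholly outside the gene as the table bounds it. Capitals mark TCACNCCAC, a form of the sterol regulatory element, and CCAAT, each on either strand (CCAAT reads ATTGG on the other).
Hmgcs1, chr13:119690101-119690350, plus strand: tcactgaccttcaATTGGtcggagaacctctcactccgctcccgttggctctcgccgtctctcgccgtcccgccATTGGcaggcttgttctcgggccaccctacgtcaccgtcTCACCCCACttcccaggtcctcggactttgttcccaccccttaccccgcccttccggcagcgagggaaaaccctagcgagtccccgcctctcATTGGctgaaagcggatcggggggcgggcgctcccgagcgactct
Sc5d, chr9:42264301-42264550, minus strand: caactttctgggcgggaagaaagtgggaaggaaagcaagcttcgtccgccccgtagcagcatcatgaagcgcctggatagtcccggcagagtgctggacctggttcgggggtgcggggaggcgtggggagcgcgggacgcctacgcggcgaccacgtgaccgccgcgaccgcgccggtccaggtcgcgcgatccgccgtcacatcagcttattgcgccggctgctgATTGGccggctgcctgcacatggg
Fads2, chr19:10101504-10101753, minus strand: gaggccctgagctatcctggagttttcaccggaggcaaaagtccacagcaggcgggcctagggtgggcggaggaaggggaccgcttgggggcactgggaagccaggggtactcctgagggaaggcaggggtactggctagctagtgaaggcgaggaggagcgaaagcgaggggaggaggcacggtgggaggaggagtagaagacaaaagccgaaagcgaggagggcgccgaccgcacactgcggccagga

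The Hmgcs1 window held the element once, as TCACCCCAC beginning 137 bases before the start, and 3 CCAAT boxes. Sc5d held 1 CCAAT box, beginning 24 bases before its start, and Fads2 held neither. Among the other called genes with a RefSeq entry, the windows of Idi1, Cyp51 and Msmo1 held 2, 1 and 3 CCAAT boxes and no TCACNCCAC. Entries were matched for 26 members with 34 windows, and Fdps, Scd1, Scd2, Stard4, Fads1, Fdft1 and Sqle were not matched. TCACNCCAC occurred in 1 of the 34 member windows and in 1.05% of 32851 windows of all genes. CCAAT occurred in 21 of the 34 and in 33.9% of all windows. By gene, 5 of the 6 called members with an entry held a CCAAT box and so did 15 of the 20 others with an entry. Of all 27025 genes with an entry, 37.5% held one. GGGCGG, the letters of the Sp1 box, stood in 25 of the 34 member windows and 32.7% of all windows, and CACGTG, an E-box, in 5 of the 34 and 6.02% of all. These are matches of letters and were not tested as binding sites.

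Libraries held 31712084 to 40798644 reads on genes (median 36674269), and mice of one diet differed by more than sampling noise in all 18 pairs. Levels are given as CPM, read counts divided by the TMM-scaled library size, and, where genes are compared with each other, as RPKM, which divides CPM by the gene's length. By mean RPKM over the 12 mice Scd2 stood far above the other members, at 242 RPKM and rank 77 among all genes. Acly, Fads2, Fads1 and Scd1 followed at 39.7, 35.5, 34.6 and 32.6 RPKM. Of the sterol enzymes Sc5d was the most abundant, at 19.2 RPKM. Msmo1 had 2.89 RPKM, and Fdps, the farnesyl diphosphate synthase, only 0.26 RPKM, with 27 to 58 reads per library, so that its changes could hardly be resolved. The Fdps level itself is uncertain, because 26.7% of its exonic bases are shared with the gene Gm43738 on the same strand. Reads there could be lost in counting or given to the other gene, which cannot be told from the counts.

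**Figure D1:**
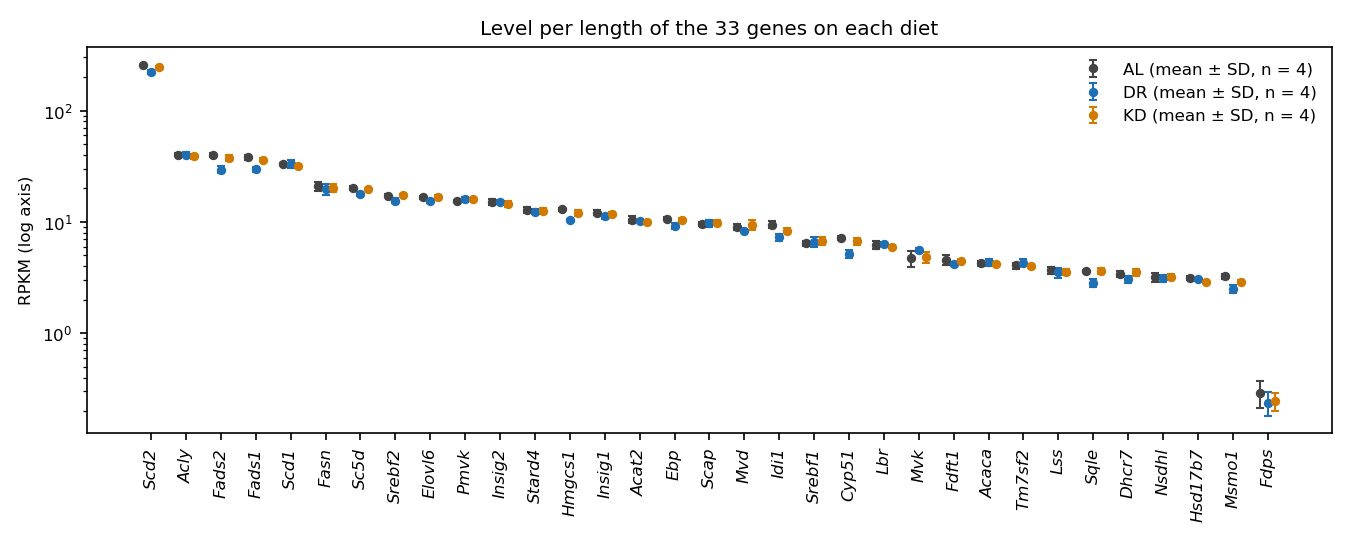
Level per length (RPKM, log axis) of the 33 genes on each diet, ordered by the mean over all mice. Points are means and bars SD over 4 mice. Scd2 lies at the top at 242 RPKM over all mice and Fdps at the bottom at 0.26 RPKM. The Fdps level is uncertain because it shares exonic bases with Gm43738.

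In the mevalonate branch, 2 of the 7 genes were called lower on DR. Hmgcs1 (ENSMUSG00000093930.2, chromosome 13, 119690379 to 119708260, plus strand) encodes the cytosolic HMG-CoA synthase, which condenses acetyl units on the way to mevalonate. Its level was 57.1, 60.9, 61.1 and 60.02 CPM in the AL mice, 47.8, 49.1, 46.5 and 48.3 CPM in the DR mice and 58.2, 51.2, 57.9 and 54.7 CPM in the KD mice. All DR mice lay below all others, and the KD mice spread from just above the DR range into the AL range. Hmgcs1 fell by 19.8% on DR, a log2FC of -0.32 (SE 0.0441, edgeR adjusted p = 0.00156). Exons of a predicted gene on the opposite strand, Gm48342, cover 12.1% of its exonic bases, and the library kit does not keep strand, so its count is uncertain by that part. Opposite-strand exons also cover 9.2% of Idi1 (Gm48574) and 3.8% of Cyp51 (Akap9), with the same uncertainty.

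Idi1 (ENSMUSG00000058258.14, chromosome 13, 8885501 to 8892451, plus strand) encodes the isomerase that makes the allylic isoprenoid unit. It was at 29.7, 34.4, 35.2 and 32.8 CPM on AL, at 27.3, 26.1, 23.0 and 26.1 CPM on DR and at 29.4, 27.8, 31.3 and 28.7 CPM on KD. Again no DR mouse reached any other mouse, while KD values lay between the DR mice and the upper AL mice. It fell by 22.4% (log2FC -0.37, SE 0.0675, edgeR adjusted p = 0.0107). The remaining 5 genes of this branch were not called. Mvk, mevalonate kinase, had the only positive value of any size, 9.98 to 14.7 CPM in the AL mice and 14.5 to 15.6 CPM in the DR mice, with a log2FC of 0.25 and an edgeR adjusted p of 0.182. The thiolase Acat2, the kinase Pmvk and the decarboxylase Mvd had log2FC values of -0.03, 0.04 and -0.10. Fdps had -0.30 with a standard error of 0.241, and 26.7% of its exonic bases are shared with the gene Gm43738 on the same strand.

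From squalene to cholesterol, 4 of the 12 genes were called lower on DR. Sqle (ENSMUSG00000022351.14, chromosome 15, 59315077 to 59331192, plus strand) encodes squalene epoxidase, a rate-limiting step that needs oxygen. It was at 19.5, 20.3, 19.9 and 20.6 CPM on AL, at 16.2, 16.7, 13.8 and 15.7 CPM on DR and at 20.5, 18.9, 19.3 and 21.4 CPM on KD. The AL mice lay within the range of the KD mice, and all DR mice lay below both. Sqle fell by 22.4% (log2FC -0.37, SE 0.0684, edgeR adjusted p = 0.0114).

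Cyp51 (ENSMUSG00000001467.5, chromosome 5, 4081145 to 4104746, minus strand), the demethylase that acts on lanosterol, had the lowest log2FC of the 33. Its level was 31.7, 33.6, 30.1 and 31.1 CPM in AL mice, 23.5, 25.1, 20.6 and 22.04 CPM in DR mice and 31.8, 26.7, 30.5 and 29.3 CPM in KD mice. The highest DR mouse was below the lowest mouse of either other diet. Cyp51 fell by 27.9%, with a log2FC of -0.47 (95% interval -0.61 to -0.33, edgeR adjusted p = 0.00167). Lss, which makes the lanosterol that Cyp51 uses, did not pass (36.5 to 43.7 CPM on AL, 34.4 to 43.5 CPM on DR, log2FC -0.06, edgeR adjusted p = 0.729). Within each mouse the ratio of Cyp51 to Lss reads was 0.80 ± 0.0795 on AL, 0.60 ± 0.0617 on DR and 0.78 ± 0.0918 on KD (SD, n = 4 each). The AL mice, at 0.6888 to 0.8627, lay just above the highest DR mouse, at 0.6845, and the lowest KD mouse, at 0.6473, was within the DR range.

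Msmo1 (ENSMUSG00000031604.10, chromosome 8, 64718139 to 64733792, minus strand) encodes the methylsterol monooxygenase, which acts after Cyp51. It was at 18.6, 20.8, 21.0 and 19.8 CPM on AL, at 17.3, 14.01, 15.2 and 15.4 CPM on DR and at 17.6, 18.1, 18.4 and 17.1 CPM on KD. Here the KD mice formed a narrow group below all AL mice, and DR replicate 1 lay within that group. Against AL, Msmo1 fell by 22.7% on DR (log2FC -0.37, SE 0.0735, edgeR adjusted p = 0.0146). Without AL replicate 2 the adjusted p became 0.0515, which no longer passed, at a log2FC of -0.35.

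Sc5d (ENSMUSG00000032018.14, chromosome 9, 42251595 to 42264256, minus strand) encodes a sterol desaturase late in the pathway. It had 95.6, 102.3, 93.8 and 100.1 CPM on AL, 90.9, 85.0, 82.2 and 87.0 CPM on DR and 95.7, 96.4, 96.0 and 96.5 CPM on KD. The KD mice were almost equal to each other and lay inside the AL range, and the DR mice were lower by a small margin. The decrease of Sc5d on DR was the smallest of those called (log2FC -0.18, SE 0.0463, edgeR adjusted p = 0.0461). It stayed called in 2 of the 8 fits that each left out a mouse. It no longer passed without AL replicate 1, 2 or 4 or DR replicate 2, 3 or 4, with edgeR adjusted p from 0.0892 to 0.143, nor with scaling by library size alone (0.0806).

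Ebp, a sterol isomerase, missed the threshold although every DR mouse (19.96 to 22.7 CPM) lay below every AL mouse (24.3 to 25.8 CPM), with a log2FC of -0.23 and an edgeR adjusted p of 0.0586. It passed with DESeq2 (adjusted p = 0.019). Dhcr7, the reductase that makes cholesterol itself, had a log2FC of -0.17 (edgeR adjusted p = 0.202). The squalene synthase Fdft1, the sterol reductases Tm7sf2 and Lbr and the demethylation enzymes Nsdhl and Hsd17b7 had log2FC values of -0.12, 0.08, 0.03, -0.03 and -0.04, with edgeR adjusted p between 0.438 and 0.918. Exons of other genes cover 47.2% of Tm7sf2, 18.3% of Fdft1 and 10.7% of Lbr, so these counts are uncertain. Summed over the 19 sterol enzymes of both branches, AL mice had 514.4 to 539.5 CPM, DR mice 456.6 to 484.7 CPM and KD mice 502.9 to 514.2 CPM, so that the DR sums lay below all others and the highest KD sum was just under the lowest AL sum. The 6 called enzymes are part of these sums, so the sums are not separate evidence of a change across the 19.

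**Figure D2:**
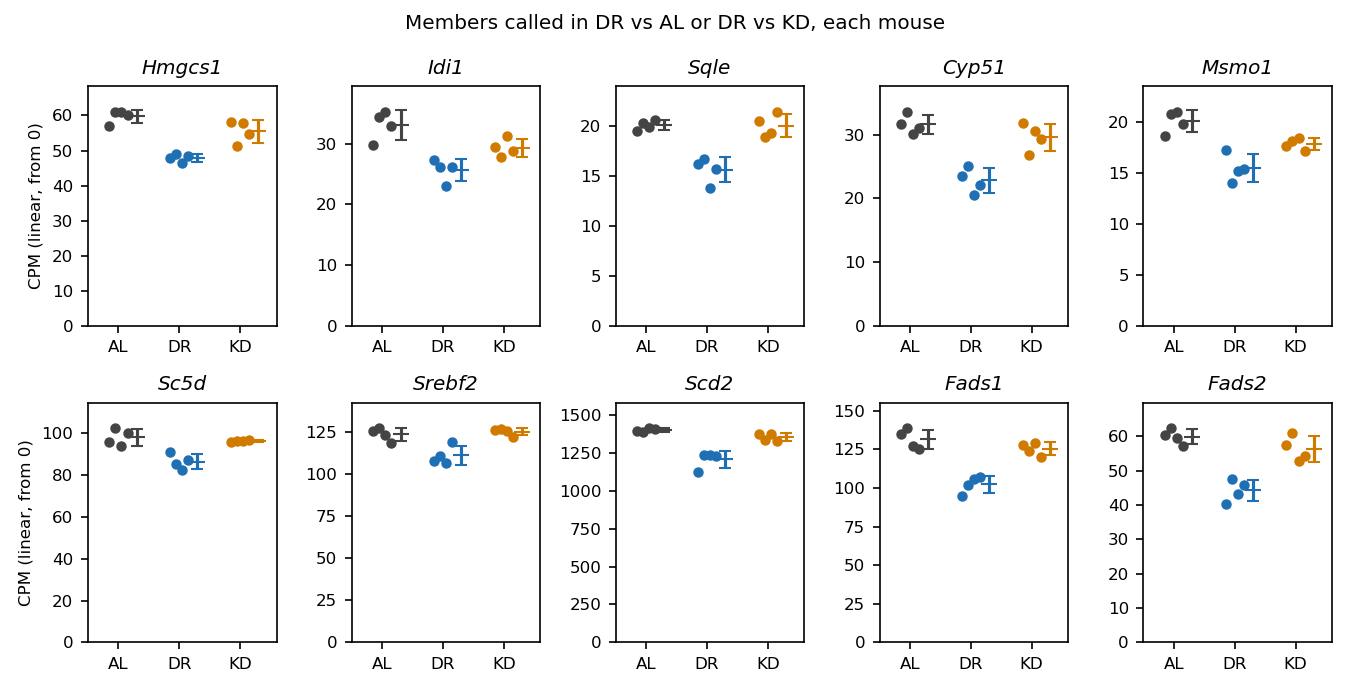
CPM of the 10 members called in DR against AL or DR against KD, on linear axes from 0. Each dot is a mouse and the bar beside it the mean ± SD of 4 mice; DR mice lie below all AL and KD mice in each panel except Msmo1, where DR replicate 1 (17.3 CPM) reaches the KD mice, and Srebf2, where DR replicate 4 (119.3 CPM) reaches the AL mice.

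None of the 6 SREBP regulators and sterol carriers was called between DR and AL. Srebf2 (ENSMUSG00000022463.8, chromosome 15, 82147181 to 82205379, plus strand) encodes SREBP-2. It was at 126, 127, 123 and 118.5 CPM on AL, at 108, 111, 107 and 119.3 CPM on DR and at 126, 127, 126 and 122 CPM on KD. DR replicate 4 alone lay among the AL mice, and the other DR mice lay below them. The log2FC was -0.15 with an edgeR adjusted p of 0.0918, and it passed with DESeq2 (adjusted p = 0.039) and when all 12 libraries were fitted together with edgeR (adjusted p = 0.0432). Srebf1, which encodes SREBP-1, had a log2FC of 0.04, with a 95% interval of -0.11 to 0.18. The retention proteins Insig1 and Insig2 had -0.10 and -0.0004, the escort Scap 0.01 and the sterol carrier Stard4 -0.05, with edgeR adjusted p from 0.362 to 0.998. Exons of another gene cover 13.2% of Scap, so its count is uncertain. Insig1 is itself a known SREBP target, and its DR mice, at 32.5 to 36.4 CPM, overlapped the AL mice, at 36.0 to 40.1 CPM.

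Of the 8 fatty acid genes 3 were called lower on DR, all of them desaturases, and the enzymes that build and lengthen the saturated chain were not called. Fads1 and Fads2 encode the front-end desaturases that turn dietary essential fatty acids into long polyunsaturated ones, and they lie on opposite strands of chromosome 19 (Fads1, ENSMUSG00000010663.4, 10182888 to 10196870, and Fads2, ENSMUSG00000024665.7, 10064164 to 10101503), 81384 bases apart. Fads1 was at 135, 139, 127 and 125 CPM on AL, at 94.6, 102, 106 and 107 CPM on DR and at 128, 124, 129 and 120 CPM on KD. Fads2 was at 60.5, 62.4, 59.6 and 57.2 CPM on AL, at 40.4, 47.6, 43.3 and 45.8 CPM on DR and at 57.4, 61.0, 52.8 and 54.2 CPM on KD. For both genes AL and KD mice overlapped, and all DR mice lay below them. Fads1 fell by 22.1% (log2FC -0.36, SE 0.0509, edgeR adjusted p = 0.00178). Fads2 fell by 26.2% (log2FC -0.44, SE 0.0547), and its adjusted p of 0.000861 in edgeR's test was the lowest of the 33. Within each mouse the ratio of Fads2 to Fads1 reads was 0.46 ± 0.00984 on AL and 0.43 ± 0.0238 on DR (SD, n = 4 each), and the mice overlapped.

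Scd1 and Scd2 encode stearoyl-CoA desaturases, which make monounsaturated fatty acids. They are neighbours on opposite strands of chromosome 19 (Scd1, ENSMUSG00000037071.2, 44394451 to 44407709, and Scd2, ENSMUSG00000025203.5, 44293676 to 44306864), with 87586 bases between them. Scd2 was at 1391, 1385, 1411 and 1404 CPM on AL, at 1121, 1236, 1235 and 1231 CPM on DR and at 1376, 1336, 1372 and 1330 CPM on KD. The KD mice lay just below the AL mice and the DR mice further below. Scd2 fell by 13.7% on DR (log2FC -0.21, SE 0.0456, edgeR adjusted p = 0.0218). It no longer passed without AL replicate 1, 2 or 4 or DR replicate 3 (edgeR adjusted p from 0.052 to 0.0663), while its log2FC stayed between -0.23 and -0.18 whichever mouse was left out.

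Scd1 had 156, 161, 162 and 156 CPM on AL, 142, 160, 175 and 167 CPM on DR and 156, 153, 152 and 151 CPM on KD. The DR mice spread around the AL mice, with a log2FC of 0.02 (edgeR adjusted p = 0.893). Within each mouse there were 8.82 ± 0.192 Scd2 reads per Scd1 read on AL, 7.52 ± 0.364 on DR and 8.85 ± 0.129 on KD (SD, n = 4 each). The DR ratios, 7.07 to 7.90, lay below the AL ratios, 8.60 to 9.02. Reads that match both of these related genes could be divided between them or lost in counting, which cannot be told from the counts.

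Fasn, fatty acid synthase, was at 223, 234, 254 and 203 CPM on AL and at 187, 244, 210 and 226 CPM on DR. The spread within each diet was wider than the difference between their means, and the 95% interval of the log2FC ran from -0.24 to 0.09. The citrate lyase Acly and the carboxylase Acaca had log2FC values of 0.00 and 0.04 (edgeR adjusted p = 0.981 and 0.775). The level of the elongase Elovl6 was 93.3 to 100.2 CPM in DR mice and 101.5 to 110.1 CPM in AL mice, with a log2FC of -0.12 and an edgeR adjusted p of 0.157.

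The same mice were not the lowest in every gene. DR replicate 3 was the lowest DR mouse in 5 of the 9 called genes, Hmgcs1, Idi1, Sqle, Cyp51 and Sc5d, and DR replicate 1 was the lowest in the desaturases Scd2, Fads1 and Fads2. When each mouse was left out in turn, 6 (without AL replicate 2) to 9 of the 33 genes were called lower on DR. Hmgcs1, Idi1, Sqle, Cyp51, Fads1 and Fads2 were called in all 8 of these fits.

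KD mice were compared with AL mice in the same way. None of the 33 was called, and 0 of 19036 genes (0.0%) were called in either direction by edgeR's test, with 928 genes at an unadjusted p under 0.05 and 10 called by DESeq2, none of them a member. Hmgcs1, Idi1 and Msmo1 had an unadjusted p under 0.05 and log2FC values of -0.11, -0.17 and -0.17, and the lowest adjusted p of any member was 0.981 in edgeR's test. Every KD mouse lay below every AL mouse in 4 members, Hsd17b7, Msmo1, Scd1 and Scd2, against 1.55% of all genes. The median log2FC of the 33 was -0.04, with 0.00 over all genes. For 32 members (all but Fdps) the 95% intervals lay within -0.30 (Idi1) and 0.27 (Mvk). For Sqle the interval was -0.13 to 0.12, for Cyp51 -0.22 to 0.03 and for Fads2 -0.19 to 0.02, each of them spanning 0.

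**Figure D3:**
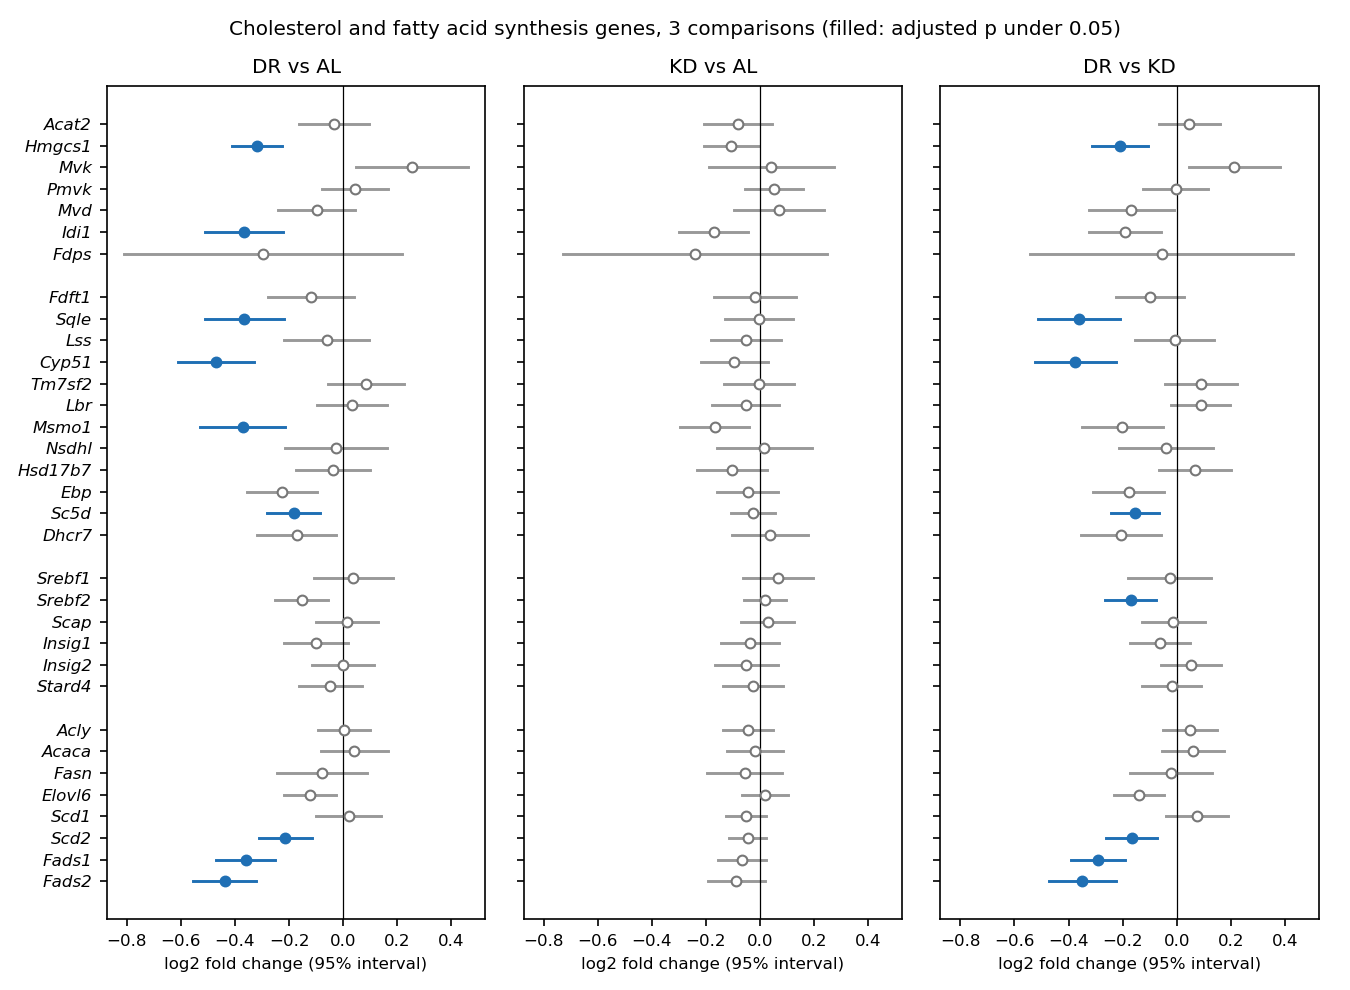
Log2 fold change (points) and 95% interval (bars) of the 33 genes in DR against AL, KD against AL and DR against KD, grouped from top to bottom as mevalonate branch, squalene to cholesterol, SREBP regulators and fatty acid genes. Filled points have an adjusted p under 0.05 in edgeR's test, 9 in the first panel, none in the second and 8 in the third.

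DR was also compared with KD, which tests directly whether the levels differed between these diets. Of the 33 genes 8 were lower on DR and none was higher, where 463 of 19087 genes (2.43%) were called lower. In 14 of the 33 every DR mouse lay below every KD mouse, against 6.03% of all genes. The DR mice are the same as in the comparison with AL, so that the comparisons are not independent. Sqle, Cyp51, Fads1 and Fads2 had log2FC values of -0.36, -0.37, -0.29 and -0.35 (adjusted p = 0.00797, 0.00588, 0.0019 and 0.00256 in edgeR's test) and were called whichever mouse was left out. Hmgcs1 had -0.21 (edgeR adjusted p = 0.0204).

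The other 3 calls were near the threshold. Srebf2 fell by 11.2% between KD and DR (log2FC -0.17, edgeR adjusted p = 0.0333), Sc5d by 10.2% (-0.16, 0.0422) and Scd2 by 10.9% (-0.17, 0.0393). With single mice left out the count ranged from 4 (without DR replicate 3, KD replicate 1 or KD replicate 3) over 5 (without DR replicate 2, KD replicate 2 or KD replicate 4) and 6 (without DR replicate 4) to 7 (without DR replicate 1). Without DR replicate 1, 6 of the 8 calls were kept, Scd2 and Srebf2 were lost and Msmo1 was gained (log2FC -0.26, edgeR adjusted p = 0.0422). Scd2 passed in none of these 8 fits, Sc5d and Srebf2 in 1 each and Hmgcs1 in 5. Idi1 (log2FC -0.19), Msmo1 (-0.20), Ebp (-0.18), Dhcr7 (-0.21), Elovl6 (-0.14) and Mvd (-0.17) did not pass with all mice, with edgeR adjusted p from 0.078 to 0.233. In the other direction, Mvk had a log2FC of 0.21 between DR and KD (edgeR adjusted p = 0.148) and did not pass either. Every DR mouse lay below every mouse of both other diets in 10 genes, Hmgcs1, Idi1, Sqle, Cyp51, Ebp, Sc5d, Elovl6, Scd2, Fads1 and Fads2, against 566 of the 18844 genes tested in both comparisons (3.0%).

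Other genes around these pathways were read from 4 lists. Among 12 other sterol and isoprenoid genes and 11 genes of SREBP processing and sterol sensing (1 more on that list was not matched) none was called in any of the 3 comparisons. Of 16 genes of sterol efflux, storage and turnover, Lcat, which esterifies cholesterol on lipoproteins, was lower on DR than AL (44.5 CPM on AL and 35.4 CPM on DR, log2FC -0.33, edgeR adjusted p = 0.00647). Nr1h3, the oxysterol receptor LXR alpha, was higher on DR (18.1 CPM on AL and 22.7 CPM on DR, log2FC 0.32, edgeR adjusted p = 0.0252). Between DR and KD the same list held 2 genes lower on DR, Lcat (log2FC -0.40) and Vldlr (-0.16), and 2 higher, the cholesterol exporter Abca1 (0.37, edgeR adjusted p = 0.00855) and Nr1h3 (0.27). Vldlr, a lipoprotein receptor, lies outside the limit of 3 genes per list and is named after its values were seen. Of 21 other fatty acid and lipid synthesis genes, Elovl2, an elongase of polyunsaturated fatty acids, was lower on DR than AL (34.7 CPM on AL and 27.4 CPM on DR, log2FC -0.34, edgeR adjusted p = 0.00725), and Acacb, the mitochondrial carboxylase, was higher on DR than KD (log2FC 0.47, edgeR adjusted p = 0.0408). Lcat, Elovl2 and Abca1 were called whichever mouse was left out. Nr1h3 was called in 3 of 8 such fits in each comparison, with edgeR adjusted p up to 0.0883 (without AL replicate 1) and 0.0874 (without KD replicate 4), Vldlr in 2 of 8, up to 0.115 (without KD replicate 3), and Acacb in 1 of 8, up to 0.128 (without DR replicate 3). The median log2FC of these lists in DR against AL lay between -0.04 and 0.02.

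In bulk tissue, fewer cells of a type and less RNA per cell cannot be told apart, and markers of some cell types also differed between the diets. Of all genes tested, 1.74% were called lower on DR against AL and 2.43% against KD. Markers of Bergmann glia and astrocytes summed to 2952 to 3096 CPM on AL, 2674 to 2798 CPM on DR and 2846 to 3020 CPM on KD, and 3 of 10 were called lower on DR against AL and 3 of 10 against KD. Oligodendrocyte and myelin markers summed to 2493 to 3146 CPM on AL, 2334 to 2859 CPM on DR and 2735 to 2963 CPM on KD, with 2 of 12 called lower on DR against AL and 4 of 12 against KD. Markers of Purkinje cells summed to 8123 to 8673, 6842 to 7886 and 8013 to 8247 CPM, with 1 of 8 lower on DR in both comparisons. Itpr1 weighs most in this sum, with a mean of 4394 CPM on AL and 3769 CPM on DR. The log2FC values of the 8 in DR against AL ran from -0.25 to -0.04. The Bergmann glia and Purkinje cell sums of DR mice lay below all AL and KD mice, as the sterol enzyme sums did, while the oligodendrocyte sums of AL and DR mice overlapped. By median log2FC in DR against AL the oligodendrocyte list was not set apart. It had -0.18, with 11 of 12 markers below 0. The Bergmann glia list had -0.12 (9 of 10 below 0) and the Purkinje list -0.15 (8 of 8). Granule cell markers summed to 5494 to 6035 CPM on AL and 5681 to 5898 CPM on DR, and none of the 7 was called between them. Sums of markers of interneurons, microglia, endothelium and choroid plexus overlapped between DR and AL except those of microglia, 60.9 to 64.7 CPM on AL and 56.8 to 60.7 CPM on DR. Against KD, 1 granule cell marker was lower and 1 higher on DR, 1 of 7 endothelial markers was lower, and none of the interneuron, microglia and choroid plexus lists was called. No marker was called between KD and AL. Some defining markers were near 0, with means of 0.93 CPM for Opalin of oligodendrocytes, 0.61 CPM for Aif1 of microglia and 0.33 CPM for Kcnj13 of choroid plexus. The part of these cell types in the lower sterol and desaturase levels was not tested.

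**Figure D4:**
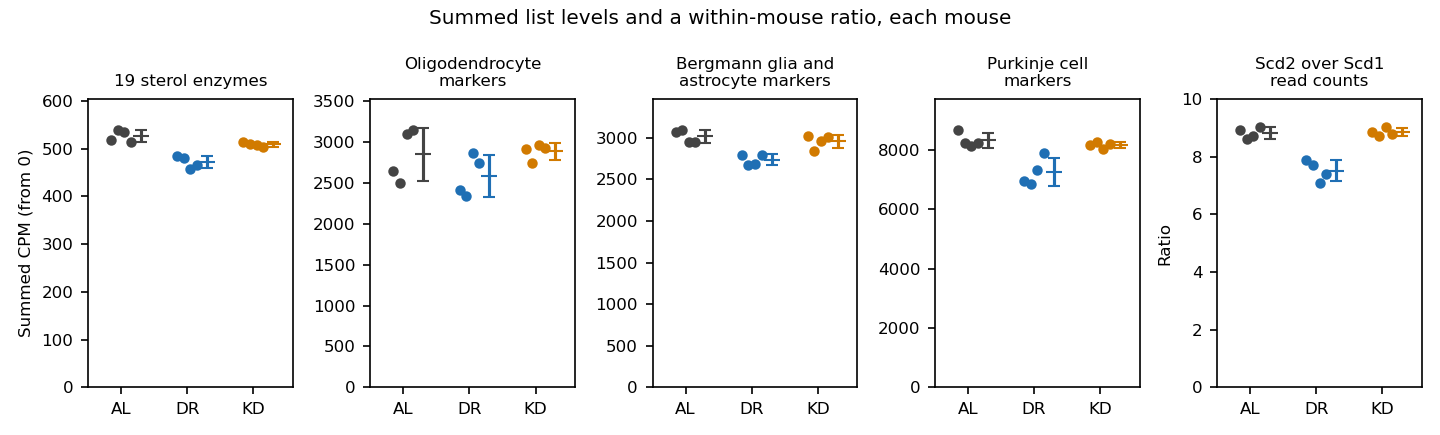
Summed CPM of the 19 sterol enzymes and of 3 lists of cell markers, and the ratio of Scd2 to Scd1 reads, on axes from 0. Each dot is a mouse and the bar the mean ± SD of 4 mice; DR mice lie below AL and KD mice in the sterol enzymes (456.6 to 484.7 CPM), the Bergmann glia and Purkinje lists and the ratio, and overlap with AL mice in the oligodendrocyte list.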

How the data were processed

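Poly(A) RNA libraries of 12 samples, 4 per diet, were analysed from the processed table. Per the study's methods and the submitters' processing notes, the authors trimmed reads with Trimmomatic 0.39, aligned them with STAR 2.7.0f to GRCm38.p6, counted them on GENCODE genes with featureCounts (Subread 1.6.4) and deposited raw counts of 54752 genes, without normalization. Whether counting used strand is not given in the sources used here, and the kit does not keep strand. AL and DR mice were chosen for sequencing by RNA quality. Diets came from the labels, which carry no replicate numbers: replicates are numbered in accession order, as names only. The methods describe separate mice for AL and DR, and the labels do not say so for KD, so p-values there measure the spread between samples.

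From these counts, 2 diets at a time were compared in a fit of those 8 libraries alone, with no covariate, by the quasi-likelihood test of edgeR 4.0.16 (R 4.3.3) after filterByExpr (minimum count 10, minimum total 15) and TMM scaling, adjusted by Benjamini-Hochberg at 0.05. RPKM used the gene lengths of the table. Sampling noise was checked by chi-square between libraries (4.95 to 11.6 per gene). The precision is set by the mice: standard errors of log2 fold changes in DR against AL ran from 0.0441 to 0.0975 for all members but Fdps. Alternatives were RLE factors, library size only, DESeq2 1.42.0, no filter, a mean above 10 CPM, all 12 libraries in one fit, and leaving out each mouse. Promoter windows came from RefSeq. Symbols were found for 54723 genes.

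The 33 members and all lists were chosen with earlier results of these data known. Named were all members and, of each pathway list, up to 3 called genes per comparison with a mean of at least 1 CPM, by size of change.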

Additional observations from a re-analysis of the deposited data

Results flagged for a closer look

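In 99 groups of 4 mice (33 genes on 3 diets), Dixon's test marked 5 values far from the other mice of their diet. Chance at 1 group in 20 would give 4.95, about the number found, so none can be called a true outlier on this test. Scd2 was 1121 CPM in DR replicate 1 against 1231 to 1236 CPM in the other DR mice, and all 9 genes called between DR and AL were still called without this mouse. Acaca was 66.58 CPM in the same mouse against 76.2 to 77.9 CPM. Stard4 was 75.96 CPM in KD replicate 2 against 67.5 to 68.3 CPM in the other KD mice. Fdps was 0.7534 CPM in KD replicate 1 against 1.11 to 1.15 CPM, at the lowest read counts of any member. Ebp was 25.83 CPM in AL replicate 2 against 24.3 to 24.4 CPM in the other AL mice.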

How the results depend on the processing

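Between DR and AL, 8 (library size only, without Sc5d), 9 (RLE), 10 (no filter, with Ebp), 11 (DESeq2 or all 12 libraries together, with Ebp and Srebf2) and 9 of 31 (mean above 10 CPM) members were called lower, and 6 to 9 with a mouse left out. Between DR and KD the counts were 6 (library size only, without Sc5d and Scd2), 8 (RLE, all 12 libraries, or above 10 CPM), 10 (DESeq2, with Elovl6 and Idi1) and 7 (no filter, without Sc5d), and 4 to 7 with a mouse left out. No setting called a member higher or called any member between KD and AL. Genes called in all were 1012 (DESeq2), 1258 (no filter) and 235 to 712 (a mouse left out) for DR and AL, 10, 118 and 0 to 6 for KD and AL, and 1503 (no filter) and 467 to 946 (a mouse left out) for DR and KD. Leaving out some mice moved these counts by more than 1.5 times. For DR and AL these mice were DR replicates 1 and 3 and AL replicates 1, 2 and 4 (353, 235, 264, 276 and 244 genes). For DR and KD they were DR replicate 3 and KD replicates 1, 3 and 4 (520, 526, 467 and 601 genes). For KD and AL the count with all mice was 0, so any gene called was taken as a move. This held without AL replicate 1, 3 or 4 (6, 2 and 5 genes). The other settings moved counts by less. Changes of sign touched only log2 fold changes that were not called. In DR against AL they were Insig2 (0.0211 by library size, 0.008 above 10 CPM) and Acly (-0.0005 without filter), and in DR against KD Pmvk (0.0167 by library size, 0.0027 above 10 CPM), Scap (0.0071), Lss (0.0121), Fasn (0.0001) and Stard4 (0.0012), these 4 by library size. With library size only, Vldlr was not called between DR and KD, nor Acacb with all 12 libraries together. With a mouse left out, log2 fold changes that changed sign ranged as follows. In DR against AL they were Acly -0.0148 to 0.0282, Nsdhl -0.0683 to 0.0200, Insig2 -0.0387 to 0.0299, Scap -0.0227 to 0.0613, Srebf1 -0.0263 to 0.0926 and Scd1 -0.0217 to 0.0804. In KD against AL they were Tm7sf2 -0.0410 to 0.0219, Fdft1 -0.0683 to 0.0458, Sqle -0.0386 to 0.0230, Nsdhl -0.0246 to 0.0617, Lbr -0.0854 to 0.0019, Elovl6 -0.0045 to 0.0401, Lss -0.0916 to 0.0009, Acaca -0.0494 to 0.0216, Stard4 -0.0683 to 0.0134, Mvk -0.0497 to 0.1249, Srebf2 -0.0014 to 0.0306, Dhcr7 -0.0073 to 0.0705, Mvd -0.0030 to 0.1053 and Scap -0.0106 to 0.0512. In DR against KD they were Fdps -0.1835 to 0.0647, Scap -0.0491 to 0.0299, Lss -0.0789 to 0.0361, Srebf1 -0.0901 to 0.0324, Fasn -0.0808 to 0.0451, Pmvk -0.0442 to 0.0224 and Stard4 -0.0564 to 0.0213. The cause was not tested. No paired analysis was possible because the labels carry no replicate numbers that link mice across diets. With 4 mice per diet and its 27 to 58 counted reads per library, Fdps could not be resolved, and KD and AL may differ by less than the intervals given.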
